A study of Mus musculus with 63 samples.

Results

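The miR-181 family in the mouse comprises 4 mature guide strands from the 5p arm, mmu-miR-181a-5p, mmu-miR-181b-5p, mmu-miR-181c-5p and mmu-miR-181d-5p, and the 3p arms of their hairpins, of which mmu-miR-181a-1-3p and mmu-miR-181a-2-3p were included here. The members were taken by name from the table of small RNA counts, in which these 6 names occupied 8 genomic loci of 2110 loci in all (1966 mature names), because miR-181a-5p and miR-181b-5p are each encoded at 2 places. All 8 loci were among the 671 loci that passed the filter on low counts over all libraries. Small RNA was sequenced in 63 libraries of 4 cell populations sorted from the kidneys of 16 male C57BL/6 mice, 8 to 12 weeks old, after blockage of 1 ureter that could later be undone by reimplanting it into the bladder. Mice had sham surgery, 2 days of ureteric obstruction (UUO-2), 7 days of obstruction (UUO-7), or 7 days of obstruction followed by 14 days after its reversal (R-UUO). The populations were CD45-CD31+ endothelial cells (ECs), CD45+F4/80hi macrophages (Macs), CD45-CD31-LTL+ proximal tubular (PT) cells and CD45-CD31-PDGFR-β+ mesenchymal cells, with 4 libraries in each group except 3 PDGFR-β+ libraries at UUO-7. The sequenced mice were those nearest to their group's mean for the kidney injury marker Havcr1, so that the spread between them may be narrower than that of the whole group, and the replicate libraries came from separate mice while the 4 cell types of a mouse share that animal.

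MicroRNAs are short RNAs cut from a hairpin precursor, and 1 strand, the guide, is loaded into an Argonaute protein and pairs with target messenger RNAs mainly through its seed, bases 2 to 8 from the 5′ end. The miR-181 family is best known from lymphocytes, where miR-181a tunes antigen receptor signalling and thymocyte selection, and from the endothelium, where miR-181b restrains NF-κB signalling through importin-α3. The 3p strands are the passenger strands of the same hairpins and are usually far less abundant.

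The mature sequences are shown because they decide which members can share targets and which loci can be told apart. All 6 names and all 8 loci matched the RefSeq sequences of the GRCm38.p6 assembly, which is the build of the count table, and capitals mark the seed.
mmu-miR-181a-5p: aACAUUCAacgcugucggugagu
mmu-miR-181b-5p: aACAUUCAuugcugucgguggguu
mmu-miR-181c-5p: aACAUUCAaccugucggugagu
mmu-miR-181d-5p: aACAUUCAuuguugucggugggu
mmu-miR-181a-1-3p: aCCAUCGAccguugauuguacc
mmu-miR-181a-2-3p: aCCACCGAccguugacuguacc
mmu-miR-181c-3p: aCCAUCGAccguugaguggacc
The 4 guide strands share 1 seed, which none of the other mature names in the RefSeq table (1679 names in all) carries. Counted from the 5′ end, miR-181b-5p and miR-181d-5p differ over their 23 shared positions at C12U alone, miR-181c-5p is miR-181a-5p without the base at position 11, and miR-181a-5p and miR-181b-5p differ at A9U, C10U and A21G. The 3p arms of the 2 miR-181a hairpins differ at U5C, inside the seed, and at U16C, so that each reports on its own hairpin. The 3p arm of miR-181c, which was not a member but is used below, shares its seed with miR-181a-1-3p and differs from it at U16G and U19G.

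The 2 miR-181a hairpins are shown whole, with both mature arms in capitals, since the 5p arms are identical and the 3p arms are not.
Mir181a-1: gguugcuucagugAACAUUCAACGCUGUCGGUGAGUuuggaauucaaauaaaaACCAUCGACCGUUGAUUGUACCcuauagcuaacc
Mir181a-2: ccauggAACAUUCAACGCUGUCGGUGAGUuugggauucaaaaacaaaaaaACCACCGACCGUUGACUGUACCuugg
Mir181a-1 lies on the plus strand at chr1:137966455-137966541 with Mir181b-1 97 bases downstream, in an intron of the non-coding gene Gm4258, and both hairpins overlap an exon of the lincRNA A430106G13Rik on the same strand. Mir181a-2, on the plus strand at chr2:38852735-38852810, is followed by Mir181b-2 after 1019 bases, and both lie opposite to an intron of Nr6a1, which encodes an orphan nuclear receptor and runs on the minus strand. Mir181c and Mir181d are 85 bases apart on the minus strand of chromosome 8, at chr8:84178873-84178961 and chr8:84178716-84178787, in an intron of the annotated span of Nanos3 on the same strand (GENCODE vM21 annotation of GRCm38).

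Total counts ranged from 616565 to 10819385 per library, with PT cells the shallowest (median 1043053.5) and ECs the deepest (median 7577134.5). The member with the lowest count in any library, miR-181a-1-3p in PT cells, had 17 counts, and every member locus had counts in all 63 libraries. The sorted populations carried their defining miRNAs. The summed level of miR-126a-3p and miR-126a-5p, endothelial markers, was 93085 to 173165 CPM (counts scaled to a common library size with TMM factors) in ECs and at most 3523 CPM elsewhere, and that of 4 leukocyte miRNAs (miR-223-3p, miR-142a-3p, miR-142a-5p and miR-511-3p) was 14751 to 42026 CPM in Macs and at most 698 CPM elsewhere. The PT markers miR-192-5p, miR-194-5p and miR-204-5p summed to 17298 to 130318 CPM in PT cells and at most 6264 CPM elsewhere, and the stromal markers miR-199a-5p, miR-199a-3p, miR-214-3p, miR-143-3p and miR-145a-5p to 92506 to 400844 CPM in PDGFR-β+ cells and at most 46029 CPM elsewhere. Some markers of other cells that moved with a result are given beside it, and this account is not complete. For leukocyte markers in ECs and PT cells the UUO-7 values stand with the list of NF-κB miRNAs below.

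The family took a mean of 3.10% of the counts in EC libraries, 6.71% in Mac libraries, 2.26% in PT libraries and 3.59% in PDGFR-β+ libraries. miR-181a-5p made up 90.2% of it in ECs, 92.4% in Macs, 84.0% in PDGFR-β+ cells and 81.2% in PT cells, where miR-181b-5p took 15.7%. By mean share of the library, the chromosome 2 locus of miR-181a-5p alone ranked 9th of all loci in EC libraries, 6th in those of Macs, 15th in those of PT cells and 9th in those of PDGFR-β+ cells. In PDGFR-β+ cells the family's share rose from 1.72% ± 0.241 (SD, n = 4) in sham to 2.04% ± 0.440 at UUO-2, 4.92% ± 0.596 at UUO-7 (n = 3) and 6.02% ± 0.770 after reversal, with no overlap between sham and the last 2 groups. In PT cells the share went the other way, from 3.43% ± 0.230 in sham to 2.07% ± 0.242, 1.86% ± 0.332 and 1.66% ± 0.588. Shares of a library carry no scaling between libraries and were not tested.

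**Figure D1:**
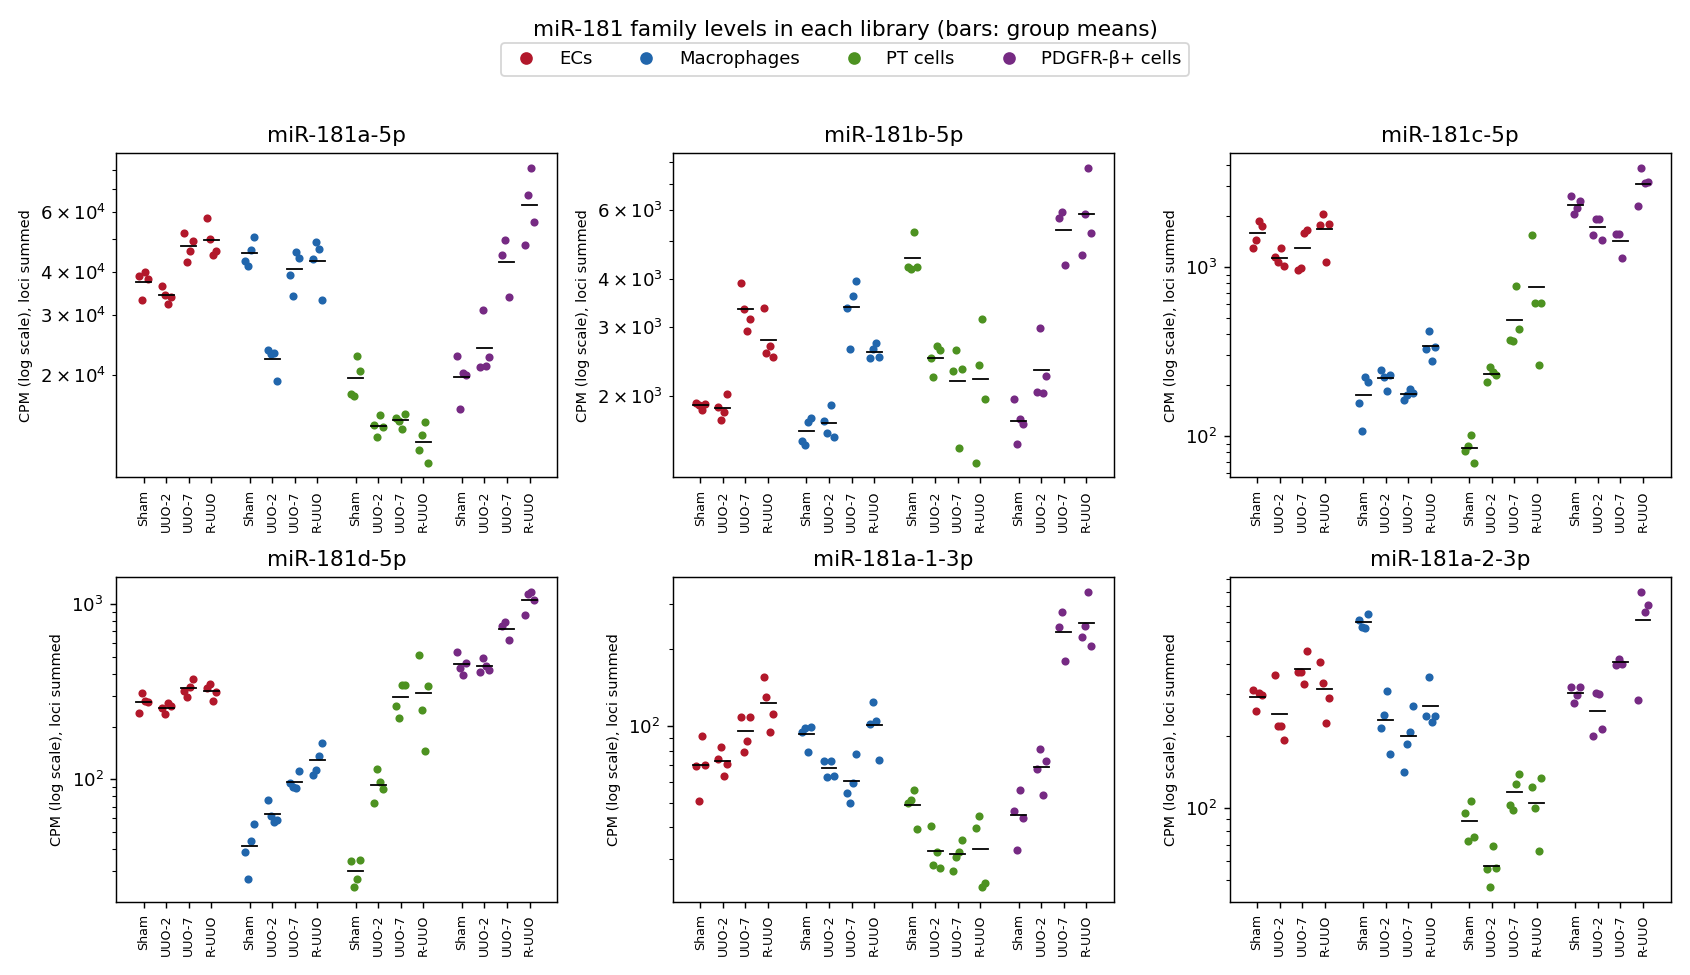
Each panel shows 1 member, with its loci summed, as CPM on a log axis (library sizes scaled by TMM over all libraries) in every library, by cell type and condition; points are libraries and bars are group means. Over the 4 conditions PT cells had the lowest miR-181a-5p, miR-181c-5p and miR-181d-5p were highest in PDGFR-β+ cells, and the 2 chromosome 8 members climbed with injury in PT cells.

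Levels were compared between the cell types with the 63 libraries in 1 fit and the mean of the 4 conditions taken in each cell type; a member passed the test at a Benjamini-Hochberg adjusted p under 0.05 and a fold change over 1.5 in edgeR's quasi-likelihood test, over all loci tested. The chromosome 2 locus of miR-181a-5p averaged 31928 ± 5789 CPM (SD over 16 libraries and all conditions) in ECs, 28633 ± 7916 in Macs, 27925 ± 14982 in PDGFR-β+ cells (15 libraries) and 11524 ± 2257 in PT cells. The first 3 of these did not differ beyond the threshold, whereas PT cells were lower than each, with differences of 1.47 ± 0.071 (log2, SE) against ECs, 1.28 ± 0.070 against Macs and, as PT against PDGFR-β+ cells, -1.16 ± 0.071. In sham libraries alone the order differed. PT and PDGFR-β+ cells did not pass (-0.03, adjusted p = 0.781), and ECs and Macs were both above PDGFR-β+ cells, by 0.99 and 1.06. Scaling by library size alone also changed it, with ECs below Macs (-1.13, against 0.19 with TMM) and Macs above PDGFR-β+ cells (1.19, against 0.12), both of which passed.

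miR-181b-5p, averaged over the conditions, had means for its chromosome 2 locus of 2932 ± 1604 CPM in PDGFR-β+ cells, 2256 ± 872 in PT cells, 1953 ± 547 in ECs and 1834 ± 624 in Macs. Of the 6 pairs of cell types, 1 passed the test for it, Macs against PDGFR-β+ cells at -0.60 ± 0.085. This call turned direction, to 0.48, when library size alone was used for scaling, and was lost with DESeq2 (-0.41) and when any of 11 of the 16 mice was left out. The same scaling added ECs against Macs (-1.21), PT cells (-1.01) and PDGFR-β+ cells (-0.73) to the pairs that passed. In sham libraries alone this member did separate the cell types. PT cells had 3568 ± 389.7 CPM (SD, n = 4), against 1496 ± 27.0 for ECs, 1361 ± 151 for PDGFR-β+ cells and 1281 ± 93.9 for Macs, with no overlap between PT cells and the rest. In edgeR's fit of the sham libraries, the differences were -1.18 for ECs against PT cells, -1.60 for Macs against PT cells and 1.37 for PT against PDGFR-β+ cells, all of which passed (adjusted p = 3.0e-09, 4.6e-11 and 4.9e-10).

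The chromosome 8 members separated the cell types most. miR-181c-5p averaged 2199 ± 755 CPM in PDGFR-β+ cells, 1425 ± 364 in ECs, 390.0 ± 372 in PT cells and 228 ± 79.5 in Macs, and miR-181d-5p 665 ± 278, 295 ± 40.0, 182 ± 147 and 82.9 ± 37.0 in the same order. ECs were lower than PDGFR-β+ cells in miR-181d-5p (-1.09 ± 0.10, adjusted p = 9.4e-14), while their difference of -0.55 in miR-181c-5p did not reach the fold threshold except with scaling by library size (-0.80). PT cells and Macs were the neighbours at the low end. miR-181c-5p did not pass between them (-0.41 ± 0.13, Macs against PT cells). In sham libraries alone it had the opposite sign and passed (0.90, adjusted p = 0.00059 in edgeR), with 174 ± 53.5 CPM in Macs and 84.6 ± 13.4 in PT cells and no overlap. miR-181d-5p was lower in Macs (-0.74 ± 0.10) in the mean over conditions but had the opposite sign in sham libraries alone (0.34, adjusted p = 0.166), and it fell below the fold threshold without UUO-7 mouse 3 (-0.55) or 4 (-0.52). With scaling by library size neither passed between Macs and PT cells (0.18 for miR-181c-5p and -0.18 for miR-181d-5p), nor did miR-181d-5p between ECs and PT cells (0.45).

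The 3p arms followed miR-181a-5p in being lowest in PT cells. miR-181a-2-3p averaged 392 ± 182 CPM in PDGFR-β+ cells, 325 ± 171 in Macs, 308 ± 73.6 in ECs and 91.7 ± 29.2 in PT cells, and miR-181a-1-3p 144 ± 103, 80.6 ± 21.0, 90.5 ± 27.1 and 36.4 ± 9.97, respectively. For both arms PT cells were lower than each other cell type in the mean over conditions, and no other pair passed the test. With scaling by library size, Macs passed above ECs in both (-1.16 for miR-181a-1-3p and -1.26 for miR-181a-2-3p, ECs against Macs) and above PDGFR-β+ cells in miR-181a-2-3p (0.73), ECs below PDGFR-β+ cells in miR-181a-1-3p (-0.64), and ECs against PT cells no longer in miR-181a-1-3p (0.51). In sham libraries alone 4 other pairs passed, with Macs above ECs (-0.84, ECs against Macs) and above PDGFR-β+ cells (0.83) in miR-181a-2-3p, and ECs (0.72) and Macs (0.92) above PDGFR-β+ cells in miR-181a-1-3p. There miR-181a-1-3p also had the opposite sign between PT and PDGFR-β+ cells (0.13, adjusted p = 0.598).

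These counts stand against the share of all tested loci that passed between the same cell types. ECs against Macs gave 2 of the 6 names (64.7% of all loci), ECs against PT cells 5 (68.6%), ECs against PDGFR-β+ cells 1 (40.2%), Macs against PT cells 4 (62.3%), Macs against PDGFR-β+ cells 3 (68.7%) and PT against PDGFR-β+ cells 5 (63.2%). In sham libraries alone between 45.4% (ECs against PDGFR-β+ cells) and 69.5% (Macs against PDGFR-β+ cells) of the loci tested passed. Scaling by library size alone shifted the median of all loci by between -1.31 (ECs against Macs) and 1.06 (Macs against PDGFR-β+ cells) on the log2 scale, by a different amount for each pair (-0.75 for ECs against PT cells, -0.25 for ECs against PDGFR-β+ cells, 0.53 for Macs against PT cells and 0.50 for PT against PDGFR-β+ cells).

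The comparisons within a cell type asked which members changed with obstruction and which of these changes remained after its reversal. Levels of the members in what follows are CPM with library sizes scaled by TMM within the cell type, in the order of the replicate numbers. Sums of marker miRNAs are CPM scaled by TMM over all libraries, like their ranges above. Fold changes are log2 values with their SE from edgeR.

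In PDGFR-β+ cells most members changed at UUO-7 and in R-UUO. At UUO-7, 4 of the 6 names were higher than in sham and 1 lower, against 48.2% of all loci called, and in R-UUO 5 were higher and none lower, against 41.7%. The median of all loci was itself 0.50 higher at UUO-7 and 0.40 higher in R-UUO, against 0.85 and 1.39 for the 6 members (loci of 1 name averaged).

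miR-181a-1-3p, the passenger strand of the chromosome 1 hairpin, had the largest change of the members in these cells. Its level was 33.8, 28.4, 42.4 and 34.7 CPM in the 4 sham libraries, 58.5, 64.6, 43.8 and 56.7 in UUO-2 libraries, 176, 213 and 144 at UUO-7, and 180.4, 178, 234 and 167 in R-UUO. Every UUO-7 and R-UUO library lay above every UUO-2 library, and these above every sham library. The difference from sham was 2.35 ± 0.21 at UUO-7 (adjusted p = 3.3e-07) and 2.45 ± 0.20 in R-UUO (adjusted p = 9.3e-08). The difference of 0.68 at UUO-2, the only member call there (6.29% of all loci), was lost under each of the 7 other ways of analysis tried and when any of 6 of the 8 libraries was left out.

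miR-181a-2-3p, the passenger strand of the chromosome 2 hairpin, did not pass at UUO-7 (0.38 ± 0.25, adjusted p = 0.22), but did with scaling by library size (0.90, adjusted p = 0.0106). Its level was 235, 239, 223 and 256 CPM in sham, 286, 323 and 320.0 at UUO-7, and 230.2, 576, 458 and 571 in R-UUO, where it was 0.95 ± 0.23 higher (adjusted p = 0.0041). 1 of the R-UUO libraries stayed within the sham range.

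The guide strands from the 2 loci rose with the chromosome 1 passenger. miR-181b-5p at its chromosome 2 locus was at 1136, 1035, 1033 and 1063 CPM in sham, at 3267, 3603 and 2735 at UUO-7 and at 2953, 3375, 4251 and 3377 in R-UUO. It was 1.59 ± 0.15 higher at UUO-7 (adjusted p = 6.6e-07) and 1.71 ± 0.14 higher in R-UUO. miR-181a-5p, at 12499, 10439, 11544 and 12046 CPM in sham, reached 24412, 28744 and 20357 at UUO-7 and 29533, 36584, 42557 and 34436 in R-UUO, which was 1.07 ± 0.15 and 1.62 ± 0.15 above sham. No R-UUO library of either guide strand fell back to the sham range.

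The chromosome 8 pair moved apart in these cells. miR-181c-5p fell at UUO-7, from 1921, 1798, 1682 and 1955 CPM in sham to 1139.6, 1202 and 901, by 0.77 ± 0.16 (adjusted p = 0.0013), and stood at 1857, 2789, 2208 and 2573 in R-UUO. Its rise from UUO-7 to R-UUO, 1.12 ± 0.16, was the only member change that passed in that comparison, in which 3.98% of all loci did. miR-181d-5p (0.54, adjusted p = 0.032) and miR-181a-5p (0.55, adjusted p = 0.0632) were also higher in every R-UUO library than in any UUO-7 library without passing both thresholds. 3 names were called with DESeq2 and without UUO-7 replicate 4 (miR-181c-5p, miR-181d-5p and miR-181a-5p), and 3 without R-UUO replicate 1 (miR-181c-5p, miR-181a-5p and miR-181a-2-3p). The fall of miR-181c-5p at UUO-7 was not called with scaling by library size alone (-0.26, adjusted p = 0.227). miR-181d-5p, from the same cluster, was at 388, 376, 299 and 369.6 CPM in sham, 543, 608 and 496 at UUO-7 and 705, 823, 817 and 851 in R-UUO, 0.62 ± 0.13 and 1.16 ± 0.12 above sham. The UUO-7 difference lay close to the fold threshold and was lost with DESeq2 (0.38), with loci of one name summed (0.54), with only the 2 groups in the fit (0.53), and without sham replicate 3 (0.51) or UUO-7 replicate 4 (0.52), while the R-UUO difference was not lost in any of the settings tried. Between UUO-2 and UUO-7, 33.8% of all loci passed, and miR-181a-5p, miR-181b-5p, miR-181d-5p and miR-181a-1-3p were among the higher ones, of which miR-181d-5p (0.61) fell below the fold threshold with DESeq2 (0.47), loci summed (0.57) or only the 2 groups in the fit (0.53), and without UUO-2 replicate 4 (0.57) or UUO-7 replicate 4 (0.53).

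Markers of other cells also moved in the PDGFR-β+ libraries. The leukocyte list summed to 60 to 176 CPM in sham and 275 to 698 CPM at UUO-7, against at least 14751 CPM in Macs. Of its 4 loci, 3 were higher at UUO-7 and 1 was lower. The endothelial list went from 2043 to 2587 CPM in sham to 465 to 706 CPM in R-UUO. The summed stromal list went from 326432 to 398693 CPM in sham to 145388 to 174139 CPM at UUO-7 and 92506 to 159541 CPM in R-UUO, although 5 of its 7 loci were higher at UUO-7 and 2 were lower. The part of these shifts in the changes of the family was not tested, and in sorted bulk RNA a change in the mix of cells and a change within cells cannot be told apart.

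In PT cells both chromosome 8 members rose and miR-181b-5p fell in all 3 comparisons with sham. The other lower name was miR-181a-2-3p at UUO-2, miR-181a-1-3p at UUO-7 and miR-181a-5p in R-UUO. At UUO-7, 2 names were higher and 2 lower (43.0% of all loci), at UUO-2 2 and 2 (19.1%), and in R-UUO 2 and 2 (38.8%).

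miR-181d-5p was at 41.0, 28.1, 31.6 and 41.4 CPM in sham PT cells, 85.7, 131, 110.2 and 98.4 in UUO-2 libraries, 281, 252, 385 and 375 at UUO-7, and 619, 275, 171 and 381 in R-UUO. The groups up to UUO-7 did not overlap, and each R-UUO library lay above all sham and UUO-2 libraries. The differences from sham were 1.58 ± 0.32 at UUO-2, then 3.18 ± 0.33 at UUO-7 (adjusted p = 4.5e-06) and 3.35 ± 0.33 in R-UUO (adjusted p = 2.5e-06). From UUO-2 to UUO-7 it rose by a further 1.60 ± 0.30, in a comparison in which 4.24% of all loci passed.

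miR-181c-5p followed, at 97.04, 99.6, 119 and 82.8 CPM in sham, 243, 293, 273 and 255 in UUO-2 libraries, 398, 409, 861 and 465 at UUO-7, and 1877, 671, 313 and 683 in R-UUO. It was 1.42 ± 0.40 higher at UUO-2, then 2.42 ± 0.41 at UUO-7 and 3.15 ± 0.42 in R-UUO (adjusted p = 4.7e-05). The call at UUO-2 was lost without UUO-2 replicate 1 or 4 or sham replicate 4, at adjusted p of 0.0502 to 0.0581. From UUO-2 to UUO-7 miR-181c-5p was higher without overlap but did not pass in the main fit. That step passed without the low-count filter (1.09) and with only the 2 groups in the fit (0.98). The R-UUO libraries were widely spread, with replicate 1 at 1877 CPM and replicate 4 at 313 CPM. The level of replicate 1 depends on its scaling. By library size alone miR-181c-5p was at 801, 694, 311 and 769.9 CPM in the 4 R-UUO libraries and miR-181d-5p at 264, 284, 170.3 and 429.5 CPM.

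**Figure D2:**
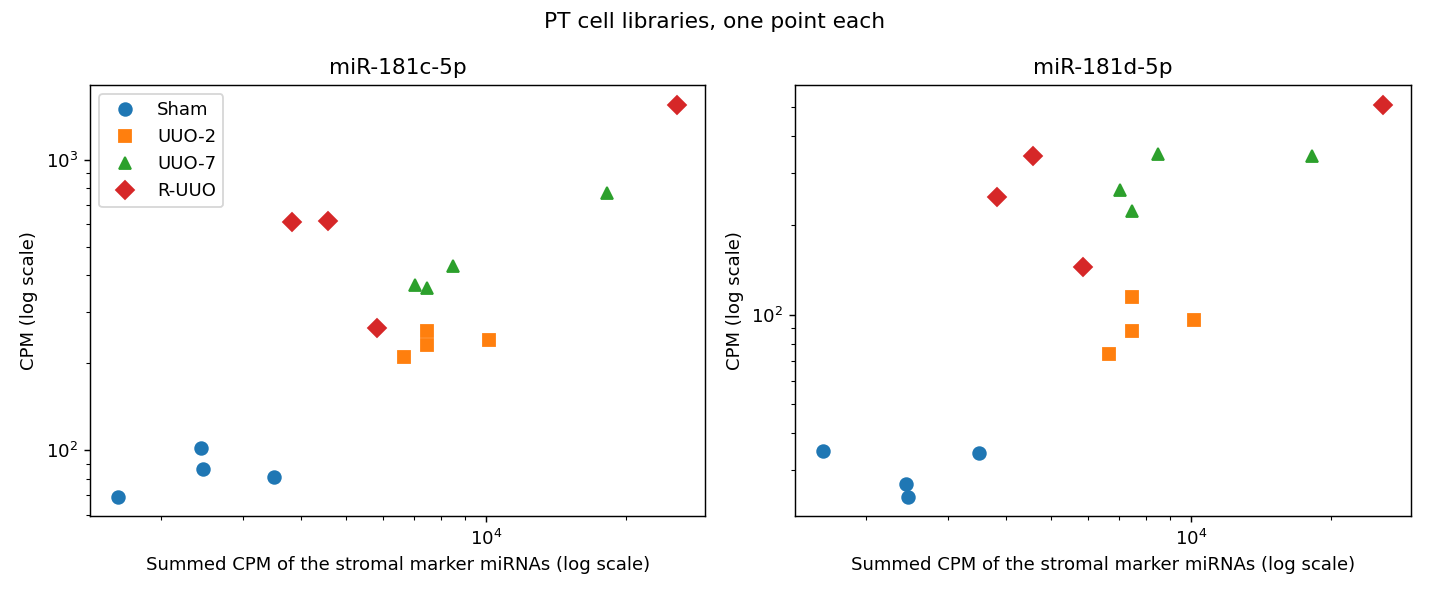
Each point is a PT cell library, with the summed CPM of the 5 stromal marker miRNAs on the horizontal log axis and the CPM of miR-181c-5p or miR-181d-5p on the vertical log axis. Library sizes are scaled by TMM over all libraries, and on this scale the R-UUO library with 25835 CPM of stromal markers is the highest point in both panels, while every injured library lies to the right of and above the sham libraries.

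Stromal markers were higher in the same libraries. The stromal list summed to 1616 to 3496 CPM in sham PT libraries, 7025 to 18213 at UUO-7 and, for replicates 1, 2, 4 and 5 of R-UUO, 25835, 3825, 5841 and 4576 CPM. These R-UUO libraries had 1877, 671, 313 and 683 CPM of miR-181c-5p with scaling within the cell type. Scaled over all libraries, as the stromal sums are, their miR-181c-5p ranged from 264 (replicate 4) to 1548 CPM (replicate 1). All UUO-7 and R-UUO libraries thus lay above the sham range of stromal markers, and the highest levels of the list were in UUO-7 replicate 4 and R-UUO replicate 1, which also had the highest miR-181c-5p of their groups. The PT markers miR-192-5p, miR-194-5p and miR-204-5p were lower than in sham in every injured PT library. They summed to 99988 to 130318 CPM in sham, 56137 to 82146.5 at UUO-2, 33866 to 54336 at UUO-7 and 17298 to 66058 in R-UUO. R-UUO replicate 1 had the lowest level, 17298 CPM. With both libraries left out, an alternative added after the data were seen, the differences from sham were 2.05 at UUO-7 and 2.46 in R-UUO for miR-181c-5p, and 3.06 and 2.94 for miR-181d-5p. Leukocyte markers were also higher in PT cells at UUO-7 than in sham, with values given beside the list of NF-κB miRNAs below. Markers of other epithelium (miR-200a-3p, miR-200b-3p and miR-429-3p) summed to 5442 to 5820 CPM in sham PT libraries. They summed to 7075 to 8147 CPM at UUO-2, 7588 to 9130 at UUO-7 and 6334 to 7425 in R-UUO. The lymphocyte miRNA miR-150-5p was at 20.8 to 30.0 CPM in sham, 31.5 to 113 at UUO-2, 36.2 to 73.65 at UUO-7 and 11.8 to 150 in R-UUO. The part of stromal cells, of leukocytes and of other epithelium in these changes was not tested.

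miR-181b-5p went down in PT cells. Its chromosome 2 locus was at 4068, 3839, 4861 and 4043 CPM in sham, 2285, 2066, 2419.7 and 2292 in UUO-2 libraries, 1948, 2328, 1300.3 and 2020.0 at UUO-7, and 1265, 2107, 2911 and 1724 in R-UUO. Its differences from sham were -0.89 ± 0.21 at UUO-2, -1.15 ± 0.22 at UUO-7 (adjusted p = 0.00055) and -1.07 ± 0.22 after reversal, with every injured library below every sham library. miR-181a-5p was at 15898, 15046, 20066 and 18427 CPM in sham and at 11009, 11091, 12902 and 9225 in R-UUO, a difference of -0.65 ± 0.13 (adjusted p = 0.0011). The differences of -0.51 at both UUO-2 and UUO-7 were under the fold threshold, although their groups did not overlap sham, and that at UUO-7 passed with scaling by library size (-0.84) and without sham replicate 2 (-0.60).

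The 2 passenger strands parted in PT cells as well. miR-181a-1-3p was at 59.3, 58.8, 65.8 and 47.0 CPM in sham and 29.0, 34.4, 36.0 and 38.7 at UUO-7, a difference of -0.74 ± 0.24 (adjusted p = 0.020) that was lost without the low-count filter and without UUO-7 replicate 2. It was also called as lower at UUO-2 with DESeq2 (-0.67) and with only the 2 groups in the fit (-0.61). In R-UUO it was called with scaling by library size (-1.10) and without R-UUO replicate 2 (-0.79), sham replicate 4 (-0.73) or the 2 PT libraries highest in stromal markers (-0.73). miR-181a-2-3p differed by -0.67 ± 0.23 at UUO-2, a call lost when any of 7 of the 8 libraries was left out, and did not pass at UUO-7 (0.30 ± 0.22). It rose by 0.97 ± 0.22 from UUO-2 to UUO-7, from 65.0, 53.5, 79.5 and 62.6 to 110.4, 111, 141 and 149 CPM, a call lost with scaling by library size (0.79) and without UUO-2 replicate 1 or 4 or UUO-7 replicate 5.

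Macs had a different order of events. miR-181a-5p dipped at UUO-2 and returned, with its chromosome 2 locus at 50892, 49165, 56968 and 56461 CPM in sham, 30094, 31326, 30292 and 27139.8 in UUO-2 libraries, 51780.3, 45078, 64434 and 50579 at UUO-7, and 54413, 59051, 54594 and 42512 in R-UUO. It fell by 0.84 ± 0.12 at UUO-2 (adjusted p = 3.7e-05) and rose by 0.83 ± 0.12 from UUO-2 to UUO-7, and no UUO-2 library overlapped either group.

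miR-181a-2-3p fell in Macs and stayed low. It was at 946, 894, 922 and 951 CPM in sham, 363, 439, 534 and 314 in UUO-2 libraries, 248, 325, 386 and 407 at UUO-7, and 399, 561, 354 and 413 in R-UUO. The differences from sham were -1.17 ± 0.19, -1.44 ± 0.19 (adjusted p = 1e-05) and -1.10 ± 0.19, and no injured library reached the sham range. At UUO-7 miR-181a-5p, the guide strand of this hairpin and of its chromosome 1 counterpart, differed from sham by -0.01 ± 0.12.

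miR-181b-5p rose in Macs, from 1887, 1869, 2174 and 2034 CPM at its chromosome 2 locus in sham to 4637, 3651, 5304 and 4739.5 at UUO-7, by 1.20 ± 0.11 (adjusted p = 2.8e-07). In R-UUO it was at 3266, 3299.9, 3308 and 3386 CPM, 0.74 ± 0.11 above sham, a call that fell below the fold threshold without the low-count filter, with the loci summed, or without R-UUO replicate 2 or sham replicate 1 or 2. miR-181d-5p rose from 60.4, 42.1, 72.7 and 81.9 CPM in sham to 129, 112, 99.0 and 110.1 at UUO-2, 167, 159, 167 and 171 at UUO-7, and 176, 180.5, 211 and 274 after reversal, by 0.80 ± 0.19, 1.37 ± 0.19 and 1.70 ± 0.19. The UUO-2 call was lost without UUO-2 replicate 1 or 2 or sham replicate 2. miR-181c-5p passed after reversal and, with scaling by library size alone, at UUO-2 (0.70). It was at 542, 670.4, 426 and 575 CPM in R-UUO against 243, 166, 363 and 308 in sham (1.03 ± 0.20) and 0.86 ± 0.20 above UUO-7.

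Of the members in Macs, 1 name was higher and 2 lower at UUO-2 (27.6% of all loci), 2 higher and 1 lower at UUO-7 (43.1%; miR-181a-1-3p also passed as lower in 3 of the other settings, at -0.62 to -0.66, and without any of 7 of the 8 libraries), 2 higher between UUO-2 and UUO-7 (30.6%), 2 higher from UUO-7 to R-UUO (19.9%) and 3 higher and 1 lower in R-UUO against sham (31.9%). The second of the names from UUO-7 to R-UUO was miR-181a-1-3p at 0.66 ± 0.15, lost with scaling by library size, without the filter, with only the 2 groups in the fit and without R-UUO replicate 2. In the same step miR-181b-5p was lower in every R-UUO library than in any UUO-7 library. It passed as lower with scaling by library size (-0.70 at its chromosome 2 locus). Macs also carried more stromal marker miRNAs after reversal, at 6780 to 9589 CPM in R-UUO against 1994 to 4985 CPM in sham, and more of the lymphocyte miRNA miR-150-5p at UUO-7, at 454 to 744 CPM against 92 to 164 CPM. miR-181 family members are abundant in lymphocytes, and the part of either in these changes was not tested.

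ECs had 1 member call at UUO-7 and 2 in R-UUO, and the smallest shares of all loci called there. No member passed at UUO-2 (edgeR and DESeq2 gave 0 names, and 0 had an unadjusted p under 0.05), where 1.71% of all loci did. At UUO-7 miR-181b-5p was higher (11.5% of all loci), at 2157, 1852, 1514 and 1570.4 CPM for its chromosome 2 locus against 908, 974, 904 and 941 in sham, a difference of 0.93 ± 0.14 (adjusted p = 0.0002), and it was also 0.80 ± 0.14 above UUO-2 (1.92%). In R-UUO it was at 1889, 1217, 1495 and 1342 CPM, 0.67 ± 0.14 above sham (16.8%), a call lost with scaling by library size (0.34) or by factors from all 63 libraries (0.56). miR-181a-1-3p was the other member higher in R-UUO, at 111, 77.9, 66.4 and 75.4 CPM against 42.0, 32.7, 56.5 and 43.7 in sham (0.92 ± 0.20). miR-181a-5p was higher by 0.45 ± 0.12 at UUO-7 with no overlap with sham, under the fold threshold. Without UUO-7 replicate 4, 3 names passed at UUO-7, miR-181a-5p (0.59, adjusted p = 0.0084) and miR-181a-1-3p (0.71) beside miR-181b-5p. miR-181a-1-3p also passed without sham replicate 3 (0.72) and with loci summed (0.67), and miR-181a-2-3p without the low-count filter (0.62). In R-UUO miR-181a-5p passed without the filter or with loci summed (both 0.62) and without any of 5 of the 8 libraries (0.62 to 0.66). miR-181c-5p and miR-181d-5p did not pass in any EC comparison. Leukocyte markers were also higher in ECs at UUO-7 than in sham, without overlap, with values given beside the list of NF-κB miRNAs below. In R-UUO the leukocyte markers summed to 90 to 132 CPM in ECs, against 21 to 62 CPM in sham. The stromal list summed to 7662 to 46029 CPM in R-UUO and 11307 to 24333 CPM in sham, with overlap. The part of leukocytes and of stromal cells in the rises of miR-181b-5p and miR-181a-1-3p was not tested.

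From UUO-7 to R-UUO, edgeR called 2 names in Macs and 1 in PDGFR-β+ cells, as above, and 0 names in ECs (1.07% of all loci) and 0 in PT cells (1.52%), where few loci passed at all. In both of the latter cell types 0 had an unadjusted p under 0.05 and DESeq2 called 0.

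**Figure D3:**
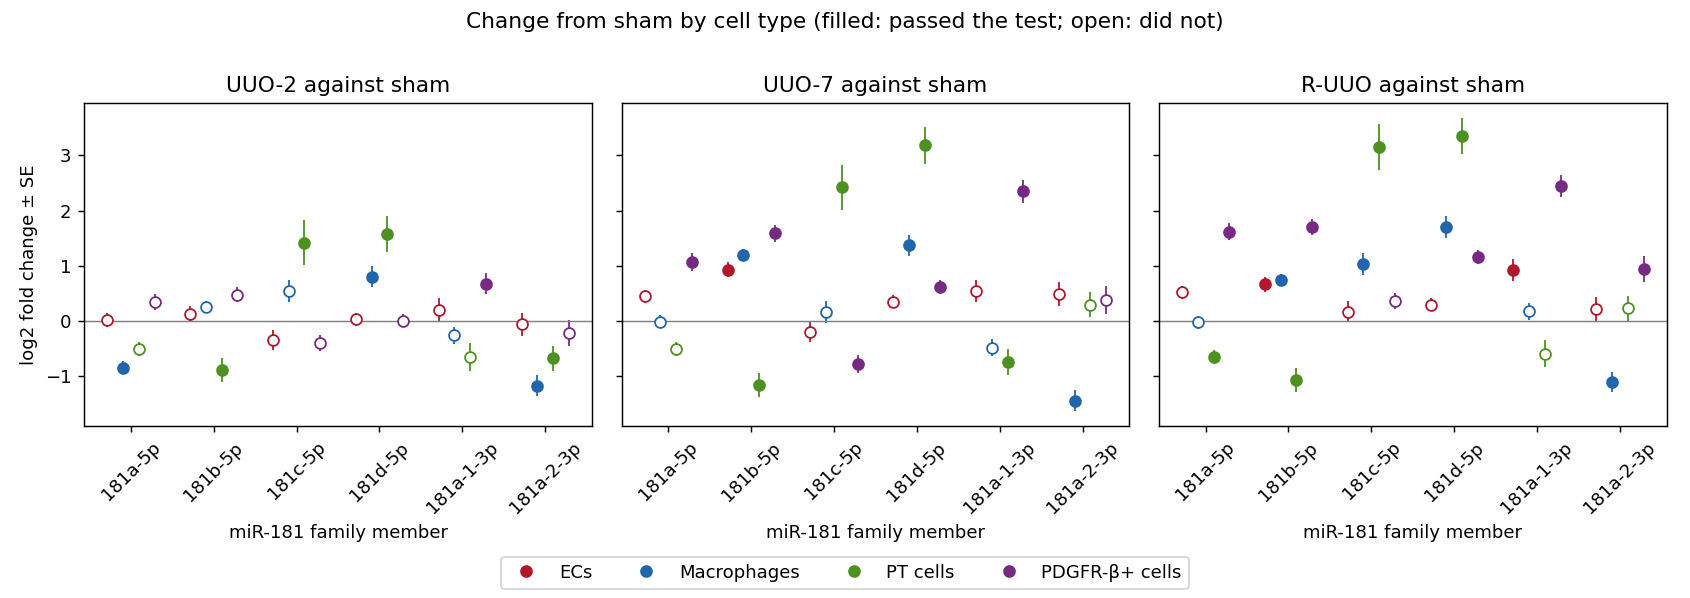
Points give the log2 fold change from sham with its SE for each member (for miR-181a-5p and miR-181b-5p the chromosome 2 locus) at UUO-2, UUO-7 and R-UUO, coloured by cell type; filled points passed the test and open points did not. The PT cell points for miR-181c-5p and miR-181d-5p lie at 1.42 or above in all 3 panels, and those for miR-181b-5p lie below 0, whereas miR-181b-5p is above 0 in the other cell types.

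Whether the change at UUO-7 differed between cell types was tested directly, as the change in 1 cell type minus the mean change of the other 3. In PT cells 5 of 6 names differed (23.8% of all loci), with miR-181c-5p 2.84 ± 0.33 and miR-181d-5p 2.57 ± 0.25 more positive and miR-181b-5p -2.22 ± 0.20, miR-181a-1-3p -1.38 ± 0.25 and miR-181a-5p -0.85 ± 0.16 more negative. In PDGFR-β+ cells 5 of 6 differed (22.8%), with the opposite signs: miR-181a-1-3p at 2.67 ± 0.25, miR-181b-5p at 1.35 ± 0.20 and miR-181a-5p at 1.19 ± 0.17, and miR-181c-5p at -1.47 ± 0.33 and miR-181d-5p at -0.92 ± 0.25, the last lost with scaling by library size (-0.37) and without UUO-7 mouse 5. In Macs 3 differed (20.1%), with miR-181a-2-3p at -1.98 ± 0.26, miR-181a-1-3p at -1.35 ± 0.24 and miR-181b-5p at 0.59 ± 0.19, the last lost without sham mouse 1 or UUO-7 mouse 4. In ECs 2 differed (11.8%), miR-181d-5p at -1.47 ± 0.24 and miR-181c-5p at -0.90 ± 0.31, the latter lost when any of 12 of the 16 mice was left out. miR-181a-2-3p was called for Macs alone in the main fit but also for other cell types in some settings. For PDGFR-β+ cells it passed with DESeq2 (0.71), with scaling by library size (1.24) and without R-UUO mouse 1 (0.68). For PT cells it passed with mouse as a block (0.67) and without R-UUO mouse 1 (0.66), and for ECs with DESeq2 (0.70) and without that mouse (0.64). The test for each cell type reads the same libraries from another side, so the signs in PT and PDGFR-β+ cells are not independent of each other.

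For the step from UUO-7 to R-UUO, edgeR called 0 members as different between cell types in each of the 4 tests, and DESeq2 called 0. The share of all loci was 0.149% for ECs, 0.894% for Macs, 0.596% for PT cells and 0.149% for PDGFR-β+ cells, and 1, 1, 1 and 2 names in that order had an unadjusted p under 0.05. For PDGFR-β+ cells this count was not stable. miR-181a-5p (0.58 ± 0.17, adjusted p = 0.0748) passed with mouse as a block (0.63 at the chromosome 2 locus, adjusted p = 0.0332) and when any of 6 of the 16 mice was left out (UUO-7 mouse 3, R-UUO mouse 1, UUO-2 mice 1 and 4, sham mice 2 and 3), with miR-181a-2-3p as a second name without R-UUO mouse 1.

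The 2 loci of a guide strand could not be followed apart. The chromosome 2 locus of miR-181a-5p had 3.06 ± 0.032 times (mean and SD over the 63 libraries) the counts of the chromosome 1 locus, with a range of 2.97 to 3.17, and for miR-181b-5p the ratio was 3.77 ± 0.12, with a range of 3.45 to 4.30. Of the comparisons within a cell type, the miR-181a-5p ratio differed without overlap in 1, PDGFR-β+ cells at UUO-7 against sham (3.03 ± 0.027 against 3.07 ± 0.0096). The ratio of miR-181a-2-3p to miR-181a-1-3p, whose sequences differ, spanned 1.28 to 8.39 over the same libraries. In PDGFR-β+ cells it went from 6.99 ± 1.3 in sham to 3.80 ± 1.2 at UUO-2, 1.79 ± 0.39 at UUO-7 and 2.47 ± 1.0 after reversal, and in Macs from 6.48 ± 0.57 to 3.42 ± 0.76, 3.30 ± 0.49 and 2.68 ± 0.50. In PT cells it was 1.80 ± 0.24 in sham and 3.70 ± 0.32 at UUO-7, without overlap. The split of the guide strand reads between the loci varied far less than the passenger strand ratio, so the 2 loci of a guide strand are not counted as separate measurements, and how reads that fit both were placed is not given in the sources used here.

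**Figure D4:**
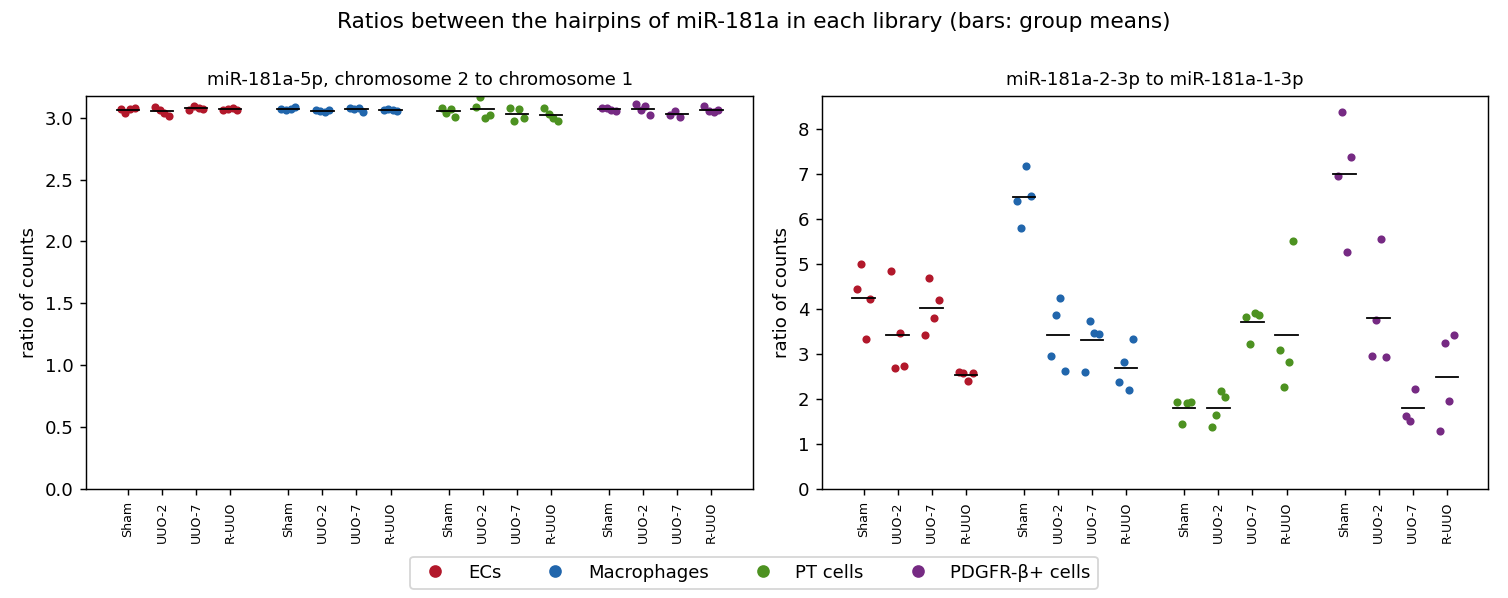
Points are libraries and bars are group means, with linear axes that start at 0. The ratio of the chromosome 2 to the chromosome 1 locus of miR-181a-5p stays between 2.97 and 3.17 in every library, while the ratio of miR-181a-2-3p to miR-181a-1-3p falls from sham to UUO-7 in Macs and PDGFR-β+ cells and is higher at UUO-7 than in sham in PT cells.

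The guide strands also changed in proportion to each other. miR-181a-5p had 28.1 ± 0.77 counts for each count of miR-181b-5p in sham Macs and 12.1 ± 0.83 at UUO-7, 19.9 ± 1.8 and 14.4 ± 1.5 in ECs, and 11.4 ± 0.55 and 8.02 ± 0.31 in PDGFR-β+ cells. PT cells had the lowest ratio in sham, 4.33 ± 0.32, and a higher one at UUO-7, 7.02 ± 1.7. The ratio of miR-181c-5p to miR-181d-5p, neighbours on chromosome 8, was lower at UUO-7 than in sham in Macs (1.83 ± 0.22 against 4.18 ± 0.55) and PDGFR-β+ cells (1.96 ± 0.14 against 5.16 ± 0.38), in both without overlap, while in ECs and PT cells the groups overlapped. These ratios use counts within a library and so do not depend on scaling, and they were not tested.

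The passenger strand of miR-181c behaved differently from its guide in PDGFR-β+ cells. It had 3.34 ± 0.13 counts for each 100 counts of miR-181c-5p in sham, 3.38 ± 0.39 in UUO-2 libraries, 13.6 ± 2.4 at UUO-7 and 7.74 ± 0.69 in R-UUO. The UUO-7 and R-UUO groups overlapped neither sham nor UUO-2. In ECs the same ratio lay between 2.59 and 4.31 in every library. In Macs it was 3.48 ± 1.0 in sham, 3.47 ± 0.35 at UUO-7 and 4.96 ± 0.43 in R-UUO, which overlapped neither. In PT cells it was 2.10 ± 2.4 in sham, with 1 library at 0, and 5.86 ± 1.8 at UUO-7, with overlap. The level of miR-181c-3p in PDGFR-β+ cells was 1.24 ± 0.22 higher at UUO-7 than in sham while miR-181c-5p was lower. It differs from miR-181a-1-3p, which rose in the same libraries, at 2 positions, and the part of misplaced reads was not tested. The other passenger strands were near the limit of detection, with at most 64 counts of miR-181b-1-3p, 19 of miR-181b-2-3p and 7 of miR-181d-3p in any library.

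**Figure D5:**
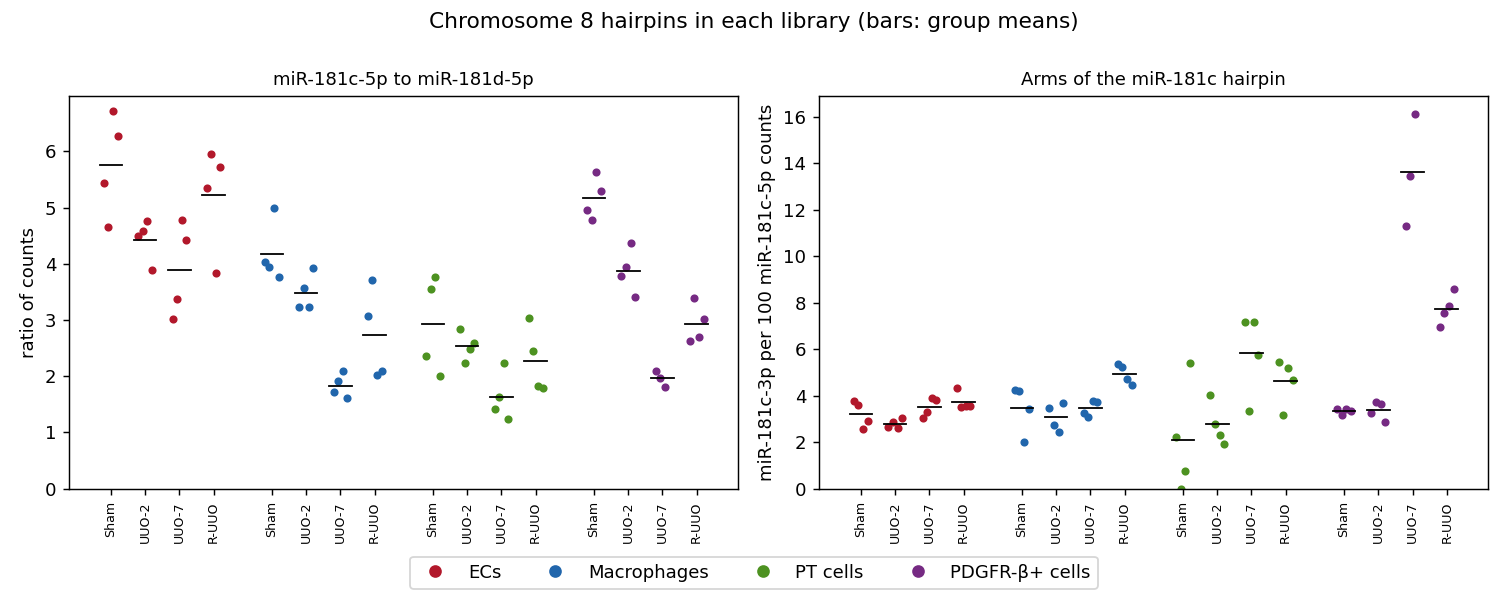
Points are libraries and bars are group means, with linear axes that start at 0. The left panel gives the ratio of miR-181c-5p to miR-181d-5p counts, and the right panel gives miR-181c-3p counts for each 100 miR-181c-5p counts, which are highest in the PDGFR-β+ libraries at UUO-7 (13.6 on average) and R-UUO (7.74).

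Other miRNAs tied to NF-κB and inflammation were taken as a list of 10 names (miR-146a-5p, miR-146b-5p, miR-155-5p, miR-21a-5p, miR-9-5p, miR-125a-5p, miR-125b-5p, miR-132-3p, miR-223-3p and miR-147-3p). At UUO-7, 7 of 10 were higher and 0 lower in ECs (median over names 1.02), 7 of the 9 tested were higher and 0 lower in PDGFR-β+ cells (median 2.21), 6 of 9 were higher and 0 lower in PT cells (median 1.13), and 4 were higher and 3 lower in Macs (median 0.40), beside medians of -0.05, 0.50, 0.00 and 0.22 for all loci. Of all loci, 11.5%, 48.2%, 43.0% and 43.1% were called at UUO-7 in these cell types, in the same order. In PDGFR-β+ cells miR-155-5p, which is induced by NF-κB, was 5.63 higher, miR-146b-5p, a feedback inhibitor of the pathway, 5.16 higher, and the injury-associated miR-21a-5p 4.97 higher. In PT cells miR-9-5p was 3.13 higher at its chromosome 13 locus and miR-132-3p 2.17 higher. In ECs miR-147-3p was 4.57 higher and miR-21a-5p 2.41 higher, and in Macs miR-132-3p was 3.63 higher and miR-146a-5p was lower (-1.19). The leukocyte markers share miR-223-3p with this list. Their sum was also higher at UUO-7 in the 3 cell types other than Macs. It was 275 to 698 CPM against 60 to 176 in sham PDGFR-β+ cells, 136 to 237 against 73 to 106 in PT cells and 111 to 193 against 21 to 62 in ECs. In PDGFR-β+ cells 3 of the 4 loci were called as higher and 1 as lower. The part of leukocytes in these values was not tested.

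Among loci outside the family, those whose 16 group means of log2 CPM followed each member most closely were named, as a description over groups that share libraries and mice. The choice depends on the measure. With Spearman's correlation over the groups, 2 of the 3 named loci were kept for miR-181a-5p and miR-181a-1-3p and 1 of 3 for each other member, and with Pearson's over the 63 libraries 3 were kept for miR-181c-5p, 1 for miR-181d-5p and 2 for each of the rest. miR-181c-5p was followed most closely, by miR-195a-3p (r = 0.960), miR-351-5p (r = 0.937) and miR-497a-5p (r = 0.935), of which miR-195a and miR-497a come from 1 cluster on chromosome 11. miR-181d-5p was followed by miR-598-3p (r = 0.922, at a mean of 1.33 CPM), miR-100-5p (r = 0.919) and miR-708-3p (r = 0.876). miR-181a-1-3p was followed by miR-99a-3p (r = 0.947) and by both loci of miR-125b-5p (r = 0.888 and 0.879), which lie near miR-99a on chromosome 16 and miR-100 on chromosome 9.

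miR-181a-5p was followed less closely, by miR-99a-5p (r = 0.845), miR-99a-3p (r = 0.805) and the barely detected miR-12191-3p (r = 0.784, mean 2.46 CPM). miR-181a-2-3p was followed by miR-24-2-5p and miR-3074-2-3p (both r = 0.862), which are opposite strands of 1 locus with equal counts, and by miR-99a-5p (r = 0.835). miR-181b-5p had the weakest neighbours, miR-1247-3p (r = 0.740), miR-7688-5p (r = 0.725) and miR-125b-1-3p (r = 0.719). Within the family, miR-181c-5p and miR-181d-5p had r = 0.935 over the 16 groups and the passenger strands of the 2 miR-181a hairpins r = 0.801, while miR-181a-5p and miR-181b-5p, which share both of their clusters, had r = 0.380 between their chromosome 2 loci.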

How the data were processed

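Counts of mature miRNAs per genomic locus were deposited by the authors as whole numbers without normalization. Per the labels and the study's methods, reads were trimmed with Trim Galore 0.4.1 and cutadapt 1.1 and aligned to GRCm38 with ShortStack, a wrapper of Bowtie, against miRBase loci; 1 further PDGFR-β+ UUO-7 library, which the authors left out as an outlier, is not analysed here. A pooled column of the table was not used, and no column of another series was found (0).

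Counts were tested with edgeR 4.0.16 (R 4.3.3; quasi-likelihood F test, TMM scaling, its filter on low counts) within each cell type, and over all 63 libraries for cell types and for differences of a change. A locus was called at a Benjamini-Hochberg adjusted p under 0.05, over all loci tested, and a fold change over 1.5. DESeq2 1.42.0 and other scalings, filters, groupings, blocks and left-out libraries were alternatives. The scripts were tested on simulated data. Log2 CPM used a prior count of 2. Named were all members, their other arms, the NF-κB list as counts, and the 3 loci outside the family with the highest Pearson r for the most abundant locus of each member. The members and lists were chosen with earlier results of these data known. Replicate libraries of a group differed by far more than sampling noise (at least 8.96 chi-square units per degree of freedom). Libraries of 1 mouse share a condition and number, which pairs cell types: 31 of 93 such pairs had correlated deviations over 0.1 (median r = 0.0486), against 28 of 279 pairs from different mice. Across conditions a number names different mice (8 of 74 pairs over 0.1), so pairing there has no base in the design. Reads carried no molecular identifiers, so the depth given counts reads rather than molecules and does not by itself cover counting error.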

Additional observations from a re-analysis of the deposited data

Results flagged for a closer look

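Single libraries stood apart from the other 3 of their group, by the gap to the nearest library relative to the group's range on the log2 scale, in 5 of 90 groups tested, and chance alone gives about 1 in 20. In CPM scaled over all libraries, miR-181a-5p was at 14475 in UUO-2 replicate 4 of Macs (the others 17412 to 17856) and at 23373 in UUO-2 replicate 2 of PDGFR-β+ cells (15943 to 17002). miR-181a-2-3p was at 352 in R-UUO replicate 2 of Macs (230 to 243). miR-181b-5p was at 1456 in sham replicate 3 of ECs (1507 to 1513) and at 4151 in sham replicate 3 of PT cells (3332 to 3404).

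The change from sham to UUO-7 differed between 1 cell type and the mean of the other 3 for 15 combinations of member and cell type, by edgeR's test of the difference. Of all loci, 11.8% differed for ECs, 20.1% for Macs, 23.8% for PT cells and 22.8% for PDGFR-β+ cells. When 1 mouse at a time was left out, 12 of the 15 kept their call with each, and miR-181c-5p in ECs, miR-181b-5p in Macs and miR-181d-5p in PDGFR-β+ cells did not, the last being lost also with scaling by library size. For miR-181a-5p the difference was 1.19 in PDGFR-β+ cells and -0.85 in PT cells. For miR-181b-5p it was 1.35 in PDGFR-β+ cells, 0.59 in Macs and -2.22 in PT cells. miR-181c-5p differed by 2.84 in PT cells, -0.90 in ECs and -1.47 in PDGFR-β+ cells, and miR-181d-5p by 2.57, -1.47 and -0.92 in the same cells. For miR-181a-1-3p the values were 2.67 in PDGFR-β+ cells, -1.35 in Macs and -1.38 in PT cells, and for miR-181a-2-3p -1.98 in Macs.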

How the results depend on the processing

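Over all alternatives, 1345 of 1445 values of the 83 called changes (1 locus for each name) kept their direction and call, 97 kept the direction but not the call, and 3 reversed. Most of these values, 934, came from leaving out 1 library or mouse, where the fit shares most of its libraries with the main fit, and 875 of them were kept. Sham libraries alone kept 16 of 20. DESeq2 kept 79 of 83 and scaling by library size alone 72 of 83, which shifted the median of all loci by up to -1.31 between cell types and by 0.52 at UUO-7 in PDGFR-β+ cells and changed the share of higher calls by over 10 points in 24 of 34 comparisons. Reversed were miR-181b-5p in Macs against PDGFR-β+ cells with library size (0.48) and, in sham libraries alone, miR-181d-5p in Macs against PT cells (0.34) and miR-181a-1-3p in PT against PDGFR-β+ cells (0.13). The cause was not tested. Counts of member names moved with library size to 1 for ECs in R-UUO (also with factors from all 63 libraries) and for PT cells from UUO-2 to UUO-7, to 6 for ECs against Macs and to 4 for ECs against PDGFR-β+ cells. They moved to 2 for ECs at UUO-7 without the filter or with loci summed, and to 1 for Macs from UUO-7 to R-UUO without the filter or with only the compared groups. With DESeq2, PDGFR-β+ cells had 3 from UUO-7 to R-UUO. In sham libraries alone, ECs against Macs had 3, ECs against PT cells 6, ECs against PDGFR-β+ cells 3, Macs against PT cells 5, Macs against PDGFR-β+ cells 5 and PT against PDGFR-β+ cells 4. PDGFR-β+ cells at UUO-2 had 0 with DESeq2, library size, factors from all 63 libraries, no filter, loci summed, only the compared groups and the replicate block. The replicate block on numbers, which the design does not pair across conditions, kept 44 of 48 calls, and among those it lost were miR-181a-1-3p in PT cells at UUO-7 and miR-181d-5p in PDGFR-β+ cells at UUO-7 against sham (0.57) and UUO-2 (0.56). The replicate block on mouse, which does pair cell types, kept 35 of 35 and added 1 name for PDGFR-β+ cells from UUO-7 to R-UUO in the test between cell types and miR-181a-2-3p for PT cells at UUO-7 (0.67). With 1 library left out, member names ranged, from sham to UUO-2, over 0 to 0, 2 to 3, 2 to 5 and 0 to 1 for ECs, Macs, PT and PDGFR-β+ cells in that order, kept below. From sham to UUO-7 the ranges were 1 to 3, 3 to 4, 3 to 5 and 4 to 5, from UUO-2 to UUO-7 1 to 2, 2 to 3, 1 to 2 and 3 to 4, from UUO-7 to R-UUO 0 to 0, 1 to 2, 0 to 0 and 1 to 3, and from sham to R-UUO 2 to 3, 3 to 4, 4 to 5 and 5 to 5. Without 1 mouse, the change at UUO-7 differed for 1 to 3, 2 to 3, 5 to 6 and 4 to 6 names, and that from UUO-7 to R-UUO for 0 to 0, 0 to 0, 0 to 0 and 0 to 2. Between cell types the ranges were 3 to 4 for Macs against PT cells and 2 to 4 for Macs against PDGFR-β+ cells, and the other 4 pairs did not move. Depth limits miR-181a-1-3p in PT cells, at 17 to 143 counts.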
